A study of Mus musculus with 4 samples.

Results

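Irf1 and Irf7, a pair of interferon regulatory factor genes, were described in colonic monocytes and macrophages of mice fed chow or a high-fat diet (HFD). They are 2 of the 11820 genes of the single-cell matrix, found by symbol, and they were chosen because of their measured diet effects in Ly6c2+ monocytes and C1q-high macrophages and their levels on chow. These values are therefore given as a description, with no test. Male C57/Bl6N mice aged 6 to 7 weeks at the start received control chow (replicates 9 and 11) or a coconut-based HFD with 60% fat (replicates 1 and 3) for 1 week. Live CD45+Lin-CD11b+CD24- cells of the colonic lamina propria that carried Ly6C or CD64 were sorted, and the cells of each mouse were loaded into a separate droplet well. Each diet group holds n = 2 mice, so SDs rest on 2 values. In the fits over all genes, p-values set the diet effect against the spread between these 4 animals. That spread is estimated for each gene partly from the other genes.

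Interferon regulatory factors are DNA-binding proteins that link interferons and microbial sensors to transcription. IRF1 is induced mainly by interferon-γ, through gamma-activated sites in the DNA, and it drives guanylate-binding proteins, the chemokine gene Cxcl9 and genes of antigen processing. IRF7 is induced by type I interferon through a complex that holds IRF9, is activated by kinases downstream of nucleic acid sensors, and amplifies the type I interferon response. In the colon, Ly6C+ monocytes from the blood enter the lamina propria, acquire MHC II and then become macrophages that express C1q.

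Irf1 (ENSMUSG00000018899) lies on the plus strand at chr11:53770014-53778374 of GRCm38 and Irf7 (ENSMUSG00000025498) on the minus strand at chr7:141262706-141266481. Inside Irf1 lies the antisense gene Gm17334, which shares 907 bases with it and has no row in the matrix. Irf7 shares 45 bases at its 3′ end with Phrf1 on the other strand. UMIs read within the shared bases of a pair could be told apart only if the counting used strand, which is not given in the sources used here. The sequence before each start site is shown because the genes differed in where the diet effect lay. It comes from RefSeq (GRCm38.p6), in which both genes were matched by symbol, is limited to the bases before the annotated gene, and is written 5′ to 3′ in the direction of the gene, with the gamma-activated site motif in capitals.
Irf1, chr11:53769764-53770013, plus strand: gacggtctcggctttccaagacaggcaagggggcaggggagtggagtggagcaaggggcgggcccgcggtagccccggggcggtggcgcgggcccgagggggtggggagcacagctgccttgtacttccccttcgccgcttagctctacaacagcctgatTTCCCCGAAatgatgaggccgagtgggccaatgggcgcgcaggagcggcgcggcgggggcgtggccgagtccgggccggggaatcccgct
Irf7, chr7:141266482-141266674, minus strand: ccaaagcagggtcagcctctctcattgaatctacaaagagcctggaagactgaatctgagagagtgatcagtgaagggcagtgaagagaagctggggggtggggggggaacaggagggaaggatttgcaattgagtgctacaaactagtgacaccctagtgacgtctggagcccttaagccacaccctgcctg
The motif searched was TTCNNNGAA, which reads the same on both strands, and this Irf1 window held 1 match, which begins 90 bases before the start site. There was no match in the Irf7 window of 300 bases or in the window of a later Irf1 start site. The core of the interferon-stimulated response element, GAAA followed by 2 bases of any kind and GAAA again, was searched on both strands and was in none of these windows. Of 27025 promoter windows of this length, 8.47% held TTCNNNGAA and 3.49% the response element core. A match describes the letters and shows no bound factor, and the absence of these letters from a window says nothing about the factor.

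The matrix held 5420 cells, from 904 to 2002 per mouse, with medians of 3266 to 3926 UMIs per cell. Of their barcodes, 23 occurred in more than 1 mouse. Cells were placed along maturation by UMIs of genes other than Irf1 and Irf7. Ly6c2+ MHC II-low monocytes had at least 2 Ly6c2 UMIs, under 100 UMIs of H2-Aa, H2-Ab1 and H2-Eb1 per 10000 and under 30 of C1qa, C1qb and C1qc per 10000. Ly6c2+ MHC II+ cells differed from these by at least 100 MHC II UMIs per 10000, and Ly6c2-low MHC II+ cells had the same MHC II with at most 1 Ly6c2 UMI. C1q-intermediate macrophages had C1q from 30 to under 100 per 10000 and C1q-high macrophages 100 or more, both with at most 1 Ly6c2 UMI. These stages held 4933 cells. A further 179 cells positive for both Ly6c2 and C1q and 308 cells low in all 3 measures were kept out. The cuts run through continuous values, with 171 of 2993 C1q-high cells at a C1q of 100 to 120 and 95 of 561 Ly6c2+ MHC II-low cells at exactly 2 Ly6c2 UMIs.

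Markers outside the gates followed the names of both end stages in all 4 mice. Plac8, an abundant transcript of monocytes, lay between 6229 and 12940 CPM (the UMIs of a gene scaled to all UMIs of a mouse and stage) in Ly6c2+ MHC II-low monocytes and between 41.7 and 891 CPM in C1q-high macrophages. Mertk, a receptor for the uptake of dying cells, lay between 0 and 1.28 CPM in the former and between 19.8 and 36.5 CPM in the latter. C1q-high macrophages of the diets were not alike in maturity markers, however. Their Cd81 was 3501 ± 313 CPM (SD, n = 2) on chow and 1440 ± 309 CPM on HFD (log2 fold change -1.38 ± 0.17, SE, adjusted p = 0.00121, edgeR's quasi-likelihood test), and their Adgre1, which encodes F4/80, was 711 ± 3.74 CPM and 329 ± 77.0 CPM (log2 fold change -1.21, adjusted p = 0.00331, edgeR). Ly6c2+ MHC II-low monocytes of chow mice numbered 48 and 50, against 217 and 246 on HFD, and those of chow mice held 324 ± 221 CPM of C1qa against 111 ± 21.2 CPM on HFD. The part of these differences in the results for Irf1 and Irf7 was not tested, beyond the definitions of macrophages compared further on.

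In Ly6c2+ MHC II-low monocytes Irf1 was 5.01-fold higher on HFD, while the Irf7 levels of the diets overlapped. Irf1 reached 99.5 and 108 CPM in the chow mice (16 and 18 UMIs) and 547 and 599 CPM in the HFD mice (494 and 470 UMIs). Both HFD mice lay far above both chow mice, with means of 573 ± 37.2 against 104 ± 6.19 CPM (SD, n = 2) and a log2 fold change of 2.32 ± 0.25 (SE). Irf7 reached 951 and 469 CPM in the chow mice and 491 and 755 CPM in the HFD mice. The HFD mice lay between the chow mice, and the log2 fold change of -0.32 ± 0.30 (SE) was close to its standard error. Without chow replicate 9 it was 0.27, and in cells grouped by Ward clustering it was 0.22, so it had no stable sign. The quasi-likelihood fit over all 4628 genes of this stage called 0.194% of them higher and 0.0648% lower on HFD at a false discovery rate (FDR) of 1%, and as this contrast was used to choose both genes nothing is read from their place in it.

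The UMIs behind the chow values were few and sat in few cells. In Ly6c2+ MHC II-low monocytes of chow mice, the 5 cells with the most Irf1 held 75% and 72.2% of its UMIs, and the 5 with the most Irf7 held 46.4% and 59.0% of its UMIs. These shares are not set against the HFD mice, which had more cells and UMIs. These sums also held RNA of plasma cells. The 3 B and plasma cell markers in the matrix (Cd79a, Igha and Jchain, of 5 listed) summed to between 35150 and 52700 CPM in the chow mice and between 8620 and 10660 CPM in the HFD mice, and 1 or 2 cells per mouse had at least 1% of their UMIs in Igha and Jchain. Without these cells the log2 fold changes were 2.28 for Irf1 and -0.40 for Irf7.

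In C1q-high macrophages the larger effect was that of Irf7. It was 6.04-fold higher on HFD, and Irf1 was 1.44-fold higher. Irf7 stood at 27.3 and 26.5 CPM in the chow mice (87 and 188 UMIs) and at 155 and 193 CPM in the HFD mice (171 and 292 UMIs). The chow mice were nearly equal and both HFD mice lay well above them, with a log2 fold change of 2.59 ± 0.19 (SE). Irf1 stood at 86.9 and 134 CPM on chow and at 179 and 163 CPM on HFD. The diets did not overlap, but the chow mice were spread (SD 33.2 CPM), and the log2 fold change was 0.52 ± 0.22 (SE). It was 0.26 without chow replicate 9 and 0.87 without chow replicate 11. Some of the Irf7 UMIs were concentrated here too, as the 5 highest cells held 40.2% and 16.5% of them in the chow mice and 36.8% and 18.2% in the HFD mice, and 1 cell of HFD replicate 1 held 29 of its 171. Of 5098 genes tested in this stage, 2.57% were called higher and 1.98% lower on HFD.

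**Figure D1:**
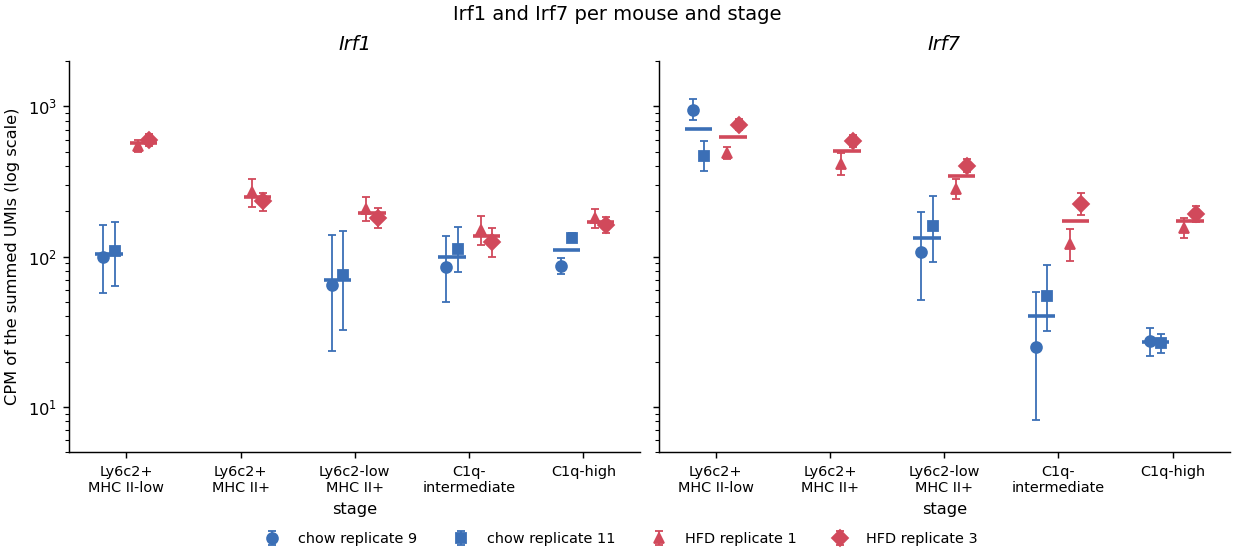
CPM of Irf1 (left) and Irf7 (right) on a log axis for each mouse in 5 stages of maturation, with exact Poisson 95% intervals that cover counting error only, and short lines at the mean of each diet. Both chow sums of Ly6c2+ MHC II+ cells, of 1 and 17 cells, are not drawn. Irf1 of HFD mice is highest in the first stage, at 547 and 599 CPM, while Irf7 of chow mice drops from 951 and 469 CPM to 27.3 and 26.5 CPM in the last.

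The difference between the diet effects of both stages, with a term for each mouse, was 1.91 ± 0.31 (SE, log2) for Irf1 and -2.72 ± 0.29 for Irf7, where a positive value means a larger effect in Ly6c2+ MHC II-low monocytes than in C1q-high macrophages. In the fit of 5485 genes, 0.0912% were called with a positive and 0.365% with a negative difference. The ratio between stages within each mouse was also taken, without a model. Irf1 in Ly6c2+ MHC II-low monocytes was 1.15 and 0.809 times its level in C1q-high macrophages of the same chow mouse, and 3.05 and 3.68 times in the HFD mice. For Irf7 the ratio was 34.9 and 17.7 in the chow mice and 3.17 and 3.92 in the HFD mice. On HFD both genes thus fell from monocytes to macrophages by a like ratio, whereas on chow only Irf7 did in both mice.

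The Irf7 effect of both stages between lay between those of the end stages, while that of Irf1 was smallest in C1q-intermediate macrophages. In Ly6c2-low MHC II+ cells Irf1 was 64.4 and 74.9 CPM on chow against 208 and 181 CPM on HFD (log2 fold change 1.37 ± 0.37, SE), and Irf7 was 107 and 159 CPM on chow against 282 and 403 CPM on HFD (1.26 ± 0.32). Here the diets did not overlap in either gene and the fold changes were alike. With 2 mice per diet a gene that is not called can also lack overlap, as Irf2 did here at a log2 fold change of 0.08. The share of all genes without overlap was not counted, so a lack of overlap is given in each stage as a description only. In this stage 0.632% of 4591 genes were called higher and 0.784% lower. In C1q-intermediate macrophages Irf1 was 85.1 and 113 CPM on chow against 150 and 125 CPM on HFD (0.32 ± 0.30), and Irf7 was 25.04 and 54.9 CPM on chow against 120 and 224 CPM on HFD (1.90 ± 0.40). The diets did not overlap in either gene, and the Irf1 effect was about as large as its standard error. Among 4605 genes of this stage 3.0% were called higher and 3.02% lower. Plasma cell RNA moved with diet in both of these stages, and its part in the results was not tested. Igha was 8030 ± 11160 CPM on chow and 65.4 ± 20.5 on HFD in Ly6c2-low MHC II+ cells, and 6442 ± 4276 and 64.4 ± 24.2 CPM in C1q-intermediate macrophages. Jchain was 3806 ± 5200 and 52.1 ± 9.28 CPM in the former and 5251 ± 1335 and 60.9 ± 8.12 CPM in the latter. Ly6c2+ MHC II+ cells were not fitted because chow replicate 9 had 1 cell and chow replicate 11 had 17. In the HFD mice, with 75 and 262 such cells, Irf1 was 268 and 233 CPM and Irf7 was 416 and 588 CPM.

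**Figure D2:**
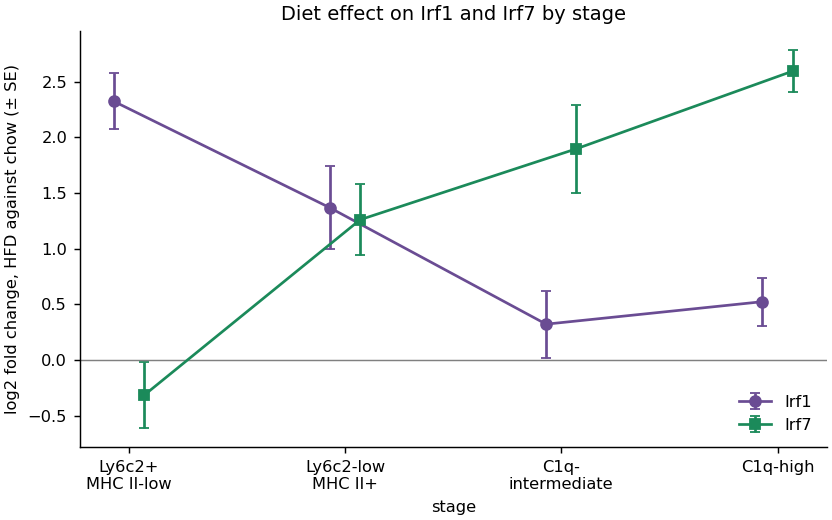
Log2 fold change of HFD against chow with its standard error for Irf1 (circles) and Irf7 (squares) in the 4 stages with at least 20 cells in every mouse. Irf1 goes from 2.32 through 1.37 and 0.32 to 0.52 along maturation and Irf7 from -0.32 to 2.59, with nearly equal values in Ly6c2-low MHC II+ cells.

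On chow, with the sparse Ly6c2+ MHC II+ cells left out, the order of Irf1 levels was C1q-high macrophages (110 ± 33.2 CPM, SD, n = 2), Ly6c2+ MHC II-low monocytes (104 ± 6.19), C1q-intermediate macrophages (99.1 ± 19.7) and Ly6c2-low MHC II+ cells (69.7 ± 7.44). The first 3 overlapped between mice, and the fourth lay below the third in both. On HFD the order was Ly6c2+ MHC II-low monocytes (573 ± 37.2 CPM), Ly6c2+ MHC II+ cells (250 ± 24.9), Ly6c2-low MHC II+ cells (194 ± 19.1), C1q-high (171 ± 11.7) and C1q-intermediate macrophages (137 ± 18.0), and no neighbours in this order overlapped. Irf7 on chow fell from 710 ± 341 CPM in Ly6c2+ MHC II-low monocytes to 133 ± 36.7 in Ly6c2-low MHC II+ cells, 40.0 ± 21.1 in C1q-intermediate and 26.9 ± 0.54 in C1q-high macrophages, of which the last neighbours overlapped. On HFD it ran through 623 ± 186, 502 ± 122 and 343 ± 85.2 CPM in the 3 stages low in C1q to 172 ± 73.2 and 174 ± 26.6 CPM in C1q-intermediate and C1q-high macrophages. The first neighbours and the last neighbours of that order overlapped. The cells low in all 3 gate measures, which belong to no stage, held 143 ± 35.3 CPM of Irf1 on chow against 504 ± 44.9 on HFD, and 171 ± 23.8 CPM of Irf7 against 454 ± 30.1.

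The share of cells with a UMI was counted at equal depth, which rises with more cells that hold the transcript as well as with more transcript per cell. Cells with at least 1500 UMIs were thinned to 1500 UMIs. Those under that depth were left out, 3 of 98 on chow and 27 of 463 on HFD among Ly6c2+ MHC II-low monocytes, and 150 of 2398 and 46 of 595 among C1q-high macrophages. In Ly6c2+ MHC II-low monocytes Irf1 was found in 11.1% (5 of 45 cells, exact binomial 95% interval 3.71 to 24.1%) and 16% (8 of 50, 7.17 to 29.1%) of cells on chow and in 40.6% (84 of 207, 33.8 to 47.6%) and 48.5% (111 of 229, 41.8 to 55.2%) on HFD. Irf7 was found in 51.1% and 36.0% of these cells on chow and 44.4% and 51.5% on HFD. Irf1 was thus found in a larger part of the monocytes in both HFD mice, whereas the shares with Irf7 overlapped between the diets. Without thinning, 1 of 48 and 1 of 50 of these monocytes had 5 or more Irf1 UMIs on chow and 39 of 217 and 37 of 246 on HFD. In C1q-high macrophages Irf7 was found in 2.70% (18 of 666, 1.61 to 4.24%) and 3.73% (59 of 1582, 2.85 to 4.79%) on chow and in 16.5% (41 of 249, 12.1 to 21.7%) and 21.0% (63 of 300, 16.5 to 26.1%) on HFD. Irf1 was found in 10.2% and 14.9% on chow and 19.7% and 19.0% on HFD. Without thinning, the means were 19.4% and 61.6% for Irf1 in Ly6c2+ MHC II-low monocytes on chow and HFD, and 6.56% and 32.8% for Irf7 in C1q-high macrophages, at median depths of 3102 and 3425 UMIs and of 4083 and 4214 UMIs per cell. Thinned to 1000 UMIs, Irf1 was found in 2.08% and 8.0% of Ly6c2+ MHC II-low monocytes on chow (1 of 48 and 4 of 50) against 35.5% and 37.3% on HFD, so the ratio between the diets depended on the depth chosen. Irf7 in C1q-high macrophages was then found in 2.63% and 1.72% on chow against 9.20% and 13.4% on HFD. None of the sorted cell types is known to lack either gene, so no background share from such a type can be set beside these, and the intervals cover counting error only.

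**Figure D3:**
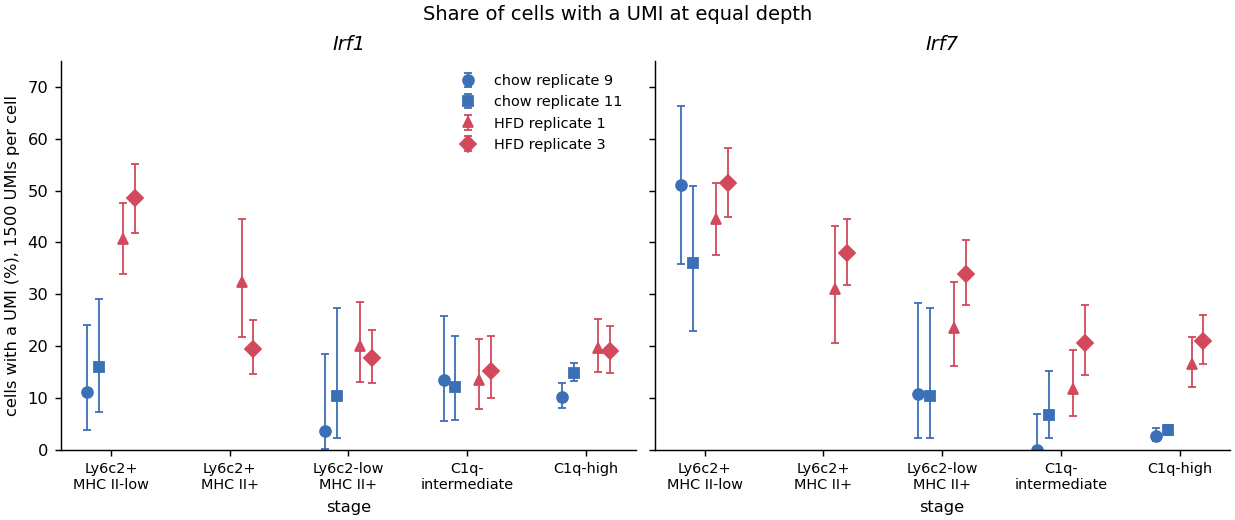
Percentage of cells with at least 1 UMI of Irf1 (left) or Irf7 (right) for each mouse and stage after thinning to 1500 UMIs per cell, with exact binomial 95% intervals and both chow sums of Ly6c2+ MHC II+ cells left out. Irf1 goes from chow to HFD in Ly6c2+ MHC II-low monocytes from 11.1% and 16% to 40.6% and 48.5%, and Irf7 in C1q-high macrophages, from 2.70% and 3.73% to 16.5% and 21.0%.

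After thinning, fewer cells held both genes than held only 1 of them. Among Ly6c2+ MHC II-low monocytes of the HFD mice, 16.9% (35 of 207) and 27.9% (64 of 229) held UMIs of both, where 18.0% and 24.98% would be found if each gene occurred independently of the other. Either gene was present in 68.1% and 72.1% of these cells. In C1q-high macrophages of HFD mice both were found in 4.02% and 2.33% of cells, against 3.24% and 3.99% under independence. The sign of the departure from independence differed between the mice in both stages.

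The abundant monocyte transcripts Plac8 and Chil3 were set beside Irf1 and Irf7, as the HFD mice had more monocytes. In C1q-high macrophages Plac8 stood at 41.7 and 73.2 CPM on chow against 891 and 815 CPM on HFD (log2 fold change 3.77 ± 0.25, SE, adjusted p = 3.08e-05, edgeR's quasi-likelihood test), and Chil3 at 15.99 and 51.6 CPM on chow against 220 and 249 CPM on HFD (2.63 ± 0.39, adjusted p = 0.00303). They thus moved in the direction of Irf7, and the part of free monocyte RNA in the Irf1 and Irf7 levels of macrophages was not tested. Per 100 Plac8 UMIs, Ly6c2+ MHC II-low monocytes of the HFD mice held 3.80 and 6.50 Irf7 UMIs and C1q-high macrophages of the same mice held 17.4 and 23.6, which is 4.58 and 3.63 times as many. Per 100 Chil3 UMIs the values were 4.53 and 7.61 in monocytes and 70.4 and 77.3 in macrophages. The Plac8 UMIs of C1q-high macrophages, multiplied by the monocyte ratio of the same HFD mouse, equal 21.9% and 27.5% of the Irf7 UMIs there, and the Chil3 UMIs 6.43% and 9.85%. For Irf1 these shares were 21.0% and 25.8% by Plac8 and 6.18% and 9.25% by Chil3. C1q-high macrophages without a single Plac8 UMI held 30.01 and 25.5 CPM of Irf7 on chow and 118 and 177 CPM on HFD, in 45 and 38 cells of the HFD mice, and Irf1 there was 79.3 and 139 CPM on chow against 328 and 169 CPM on HFD, with no overlap. Without a UMI of Plac8 or Chil3, Irf7 was 27.4 and 26.01 CPM on chow against 154 and 320 CPM on HFD in 31 and 19 HFD cells, while Irf1 overlapped between the diets (84.5 and 140 CPM on chow, 437 and 68.7 CPM on HFD, the last from 3 UMIs).

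The size of both effects in macrophages depended on which cells were called mature. When cells were clustered by Ward's method, both clusters with the most C1qa took in 644 of 691 and 1624 of 1707 C1q-high cells of the chow mice, but only 134 of 270 and 69 of 325 of the HFD mice. In these clusters Irf1 was 86.5 and 136 CPM on chow against 268 and 394 CPM on HFD, and its log2 fold change rose to 1.52 ± 0.26 (SE), which left a difference between stages of 0.71 ± 0.30. Irf7 was 20.3 and 25.2 CPM on chow against 86.4 and 149 CPM on HFD in the same clusters, with a log2 fold change of 2.28 ± 0.29 and a difference of -1.98 ± 0.31. With clusters built without the genes of the lists, Irf1 was 195 and 194 CPM on HFD and 89.3 and 130 CPM on chow (log2 fold change 0.75, difference 1.38). The log2 fold change of Irf7 was then 2.17 and its difference -1.70. The Irf1 effect thus moved more than that of Irf7 in the first clustering, and less in the clusters built without the lists.

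Subsets inside the C1q-high gate varied, and those of HFD mice were small. In cells with a UMI of Cd4, a marker of long-lived gut macrophages, Irf7 was 12.1 and 19.0 CPM on chow against 122 and 118 CPM on HFD, and Irf1 was 55.9 and 119 CPM on chow against 334 and 182 CPM on HFD. Only 23 and 21 such cells came from the HFD mice, with 33 and 20 Irf1 UMIs. At a C1q of 200 to under 300 per 10000, Irf7 was 37.0 and 22.5 CPM on chow against 121 and 204 CPM on HFD, while Irf1 was 52.7 and 98.3 CPM on chow against 181 and 143 CPM on HFD. At a C1q of 100 to under 200, Irf7 differed between the diets (16.4 and 31.5 CPM on chow, 187 and 186 CPM on HFD) and Irf1 overlapped (119 and 168 CPM on chow, 147 and 169 CPM on HFD). At a C1q of 300 or more, Irf7 was 71.7 and 22.7 CPM on chow against 123 and 185 CPM on HFD, with 5 to 11 UMIs per mouse, and Irf1 was 47.8 and 236 CPM on chow against 423 and 252 CPM on HFD. In cells with a UMI of Lyve1 or Cd163 the diets overlapped in Irf7, which was 5.69 and 23.6 CPM in the chow mice, 213 CPM in HFD replicate 1 and 0 in HFD replicate 3, although only 6 and 3 such cells came from the HFD mice. Irf1 did not overlap in these cells, at 62.6 and 208 CPM on chow against 783 and 2651 CPM on HFD, the latter from 11 and 20 UMIs.

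**Figure D4:**
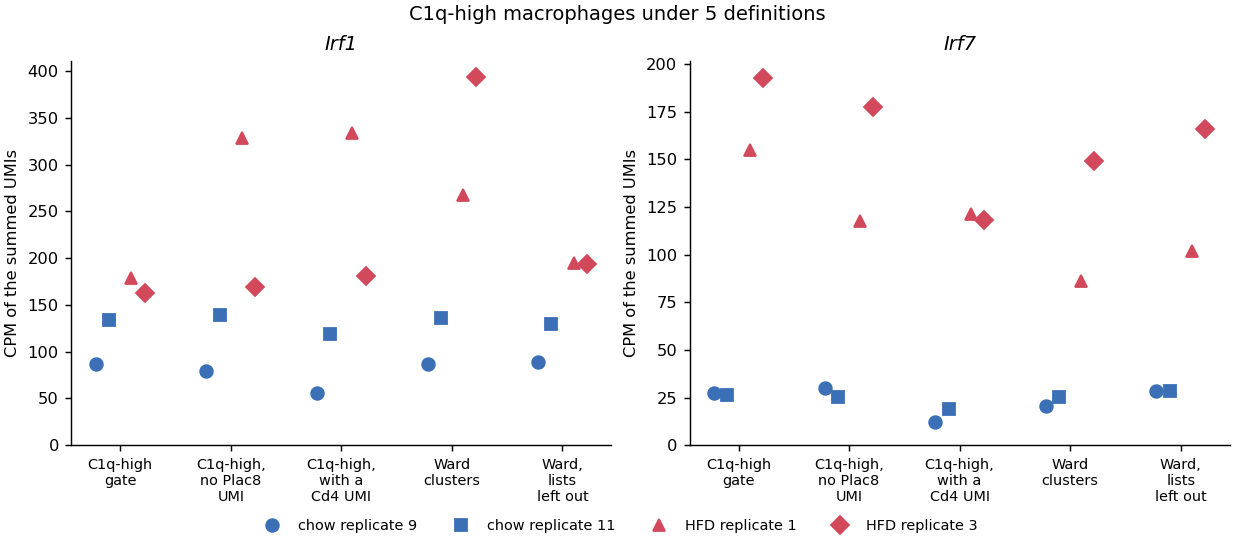
CPM of Irf1 (left) and Irf7 (right) per mouse in C1q-high macrophages under 5 definitions, namely the C1q gate, its cells without a Plac8 UMI, its cells with a Cd4 UMI, the Ward clusters with the most C1qa, and the same clustering without the listed genes. The HFD mice lie above the chow mice in each panel and definition, with Irf7 between 86.4 and 193 CPM on HFD against at most 30.01 on chow, and Irf1 between 163 and 394 CPM on HFD.

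Of the 8 Irf genes in the matrix, Irf2, Irf3, Irf5 and Irf9 had enough UMIs for a test beside Irf1 and Irf7, and 0 of 4 were called in Ly6c2+ MHC II-low monocytes, in C1q-high macrophages or in the difference between them by edgeR's quasi-likelihood test and by DESeq2, with 1 of 4 at an unadjusted p under 0.05 in each. Of all genes, 521 of 4628 in the monocytes and 1385 of 5098 in the macrophages had an unadjusted p under 0.05 in the quasi-likelihood test. Over all genes the shares called were 0.194% higher and 0.0648% lower in the monocytes, 2.57% and 1.98% in the macrophages, and 0.0912% positive and 0.365% negative in the difference, so 0 of 4 is no result about the family. Irf5, a factor of inflammatory macrophages, was 405 ± 113 CPM on chow against 369 ± 30.2 CPM on HFD (SD, n = 2) in Ly6c2+ MHC II-low monocytes and 174 ± 21.6 and 165 ± 19.3 CPM in C1q-high macrophages. Irf2, which competes with IRF1 at shared sites, was 168 ± 8.29 and 182 ± 17.3 CPM in the former and 91.9 ± 12.9 and 73.0 ± 5.85 CPM in the latter. Irf9, the DNA-binding part of the complex that type I interferon activates, was 36.5 ± 16.4 and 84.7 ± 22.7 CPM in the former (log2 fold change 1.06 ± 0.49, SE, adjusted p = 0.444, edgeR) and 42.4 ± 2.82 and 44.8 ± 8.37 CPM in the latter. Irf3, which like IRF7 is activated downstream of nucleic acid sensors, was 30.5 ± 7.93 and 24.4 ± 9.29 CPM in the former. Irf4 and Irf8 stayed at or under 9.02 CPM as a mean of either diet in these stages.

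Of 6 listed interferon genes, Ifng and Ifnb1 were in the matrix, and the 4 Ifna genes of the list were not analysed here. Ifng was at 0 UMIs in both end stages in all 4 mice, which by a floor of 3 counts over all mice allows up to 1.49 CPM in Ly6c2+ MHC II-low monocytes and 0.233 CPM in C1q-high macrophages, and Ifnb1 had 4 UMIs in Ly6c2+ MHC II-low monocytes and 60 UMIs in C1q-high macrophages over all mice. Of 10 sensors and kinases upstream of IRF7 in Ly6c2+ MHC II-low monocytes and 9 in C1q-high macrophages, 0 were called by edgeR or DESeq2 (1 and 2 at an unadjusted p under 0.05), which at the same shares over all genes says nothing particular of them. Among 5 tested inhibitors of 12, 0 were called in Ly6c2+ MHC II-low monocytes (1 at an unadjusted p under 0.05, 0 by DESeq2), beside 0.194% higher and 0.0648% lower over all genes. In C1q-high macrophages, where 1.98% of all genes fell, 1 of 5 did. Socs3, which restrains cytokine receptors, fell there from 1053 ± 8.06 to 641 ± 90.0 CPM (log2 fold change -0.81 ± 0.15, SE, adjusted p = 0.00802, edgeR). That call held in 6 of 14 alternatives and was lost, among others, without chow replicate 9, chow replicate 11 or HFD replicate 3 and in the Ward clusters.

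Genes that interferon-γ induces and that are linked to IRF1 included ones that rose on HFD at both ends of maturation. In Ly6c2+ MHC II-low monocytes 4 of 23 tested genes rose and none fell, where 0.194% of all genes tested rose and 0.0648% fell, and their median log2 fold change was 1.20 against -0.015 over all genes tested, with all 23 estimates above 0. The 4 were Cxcl9, Gbp5, Gbp2 and Gbp3. HFD mice gave 463 of the 561 cells of this stage, so genes low on chow, such as Gbp5, could pass the filter through HFD cells. The median and the signs of the 23 estimates can lean on that filter, and no more is read from them. Cxcl9, which encodes a chemokine for T cells, was 15.2 ± 3.96 CPM in chow mice and 610 ± 151 CPM in HFD mice (log2 fold change 5.16 ± 0.43, SE, adjusted p = 0.000107, edgeR). Gbp2, a guanylate-binding protein of cell-autonomous defence, was 109 ± 57.9 CPM in chow mice and 1669 ± 396 CPM in HFD mice (log2 fold change 3.79 ± 0.32, adjusted p = 0.000107, edgeR). Gbp5 had 2 UMIs on chow and 235 on HFD, a ratio of 22.8 with an exact 95% interval of 6.23 to 189 for counting error (adjusted p = 0.00801, edgeR). Its call held in 8 of 14 alternatives and was lost with DESeq2, with thinned cells and when any of the mice was left out. Without HFD replicate 1 or without HFD replicate 3, 0 of these genes were called, while 1 was called without chow replicate 9 and 2 without chow replicate 11. Over all genes, too, fewer were called when a mouse was left out. In the Ward clusters 10 of the list were called, beside 42 of all 4327 genes tested. With the clusters built without the listed genes 12 were called, beside 68 of 4314.

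In C1q-high macrophages 8 of 19 tested genes of this list rose and none fell, where 2.57% of all genes rose and 1.98% fell, with a median of 0.75 against -0.018 over all genes. The largest changes were those of Cxcl9 (log2 fold change 4.90 ± 0.40, SE, adjusted p = 0.000165, edgeR), Gbp2 (3.75 ± 0.19, adjusted p = 6.44e-06) and Il18bp, which encodes a decoy for interleukin-18 (3.11 ± 0.37, adjusted p = 0.000852). Il18bp was 12.9 and 11.6 CPM on chow against 63.4 and 158 CPM on HFD, and its call was lost in the Ward clusters, with thinned cells and when either chow mouse was left out. Gbp2 went from 27.3 ± 4.89 to 397 ± 4.76 CPM there and was called under every alternative tried. The count fell to 2 without chow replicate 9 and to 3 without chow replicate 11, and to 1 in the Ward clusters. In those clusters 6 of all 4984 genes were called. Plac8, Chil3, Cd81 and Adgre1 moved in C1q-high macrophages as well, and their part in the rise of this list was not tested. In Ly6c2-low MHC II+ cells 4 of 22 and in C1q-intermediate macrophages 12 of 21 genes of the list rose, beside 0.632% and 3.0% of all genes, and DESeq2 called 3 and 5. In the difference between the end stages 2 of 23 were called, beside 0.0912% positive and 0.365% negative over all genes, both with the higher log2 fold change in Ly6c2+ MHC II-low monocytes. These were Gbp3 (1.91 ± 0.31, adjusted p = 0.00347, edgeR) and Fcgr4, an activating Fc receptor (2.56 ± 0.35, adjusted p = 0.000777). The change of Fcgr4 was called in neither stage alone (adjusted p = 0.0117 in the monocytes and 0.633 in the macrophages, edgeR). Gbp3 went from 82.5 ± 2.38 to 458 ± 65.9 CPM in Ly6c2+ MHC II-low monocytes and from 167 ± 33.3 to 262 ± 16.7 CPM in C1q-high macrophages.

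Antiviral genes of the type I interferon pattern, to which Irf7 belongs by its induction, showed no shift of their median in Ly6c2+ MHC II-low monocytes. There 0 of 28 were called by edgeR's quasi-likelihood test or DESeq2 (3 at an unadjusted p under 0.05, 2 by edgeR's likelihood-ratio test), beside 0.194% higher and 0.0648% lower over all genes, so the count is no result about the list. Of 28 estimates 13 were above 0, and their median was -0.025. With no filter 2 genes of the list were called, 1 with the gate of 1 Ly6c2 UMI, 1 with thinned cells, 1 in the Ward clusters and 3 in the clusters built without the listed genes. Over all genes these settings called, in the same order, 101 of 11223, 28 of 4572, 21 of 3047, 42 of 4327 and 68 of 4314. The likelihood-ratio test called 77 of 4628. In C1q-high macrophages 4 of 17 rose and none fell, beside 2.57% and 1.98% of all 5098 genes, with a median of 0.66 and 16 of 17 estimates above 0. The monocyte transcripts Plac8 and Chil3 rose in these macrophages as well, while Cd81 and Adgre1 fell, and their part in this rise was not tested. Zbp1, a sensor of Z-form nucleic acid, went from 25.7 ± 3.54 to 190 ± 13.1 CPM (log2 fold change 2.77 ± 0.19, SE, adjusted p = 3.76e-05, edgeR) and had an adjusted p of 0.0369 in Ly6c2+ MHC II-low monocytes, where it was 206 ± 78.3 CPM on chow and 601 ± 100.3 on HFD. Isg15, a ubiquitin-like modifier, went from 44.6 ± 10.7 to 192 ± 3.16 CPM (1.99 ± 0.20, adjusted p = 0.000432). Rtp4 went from 34.5 ± 7.93 to 92.8 ± 16 CPM (1.31 ± 0.22, adjusted p = 0.00531). The fourth was Phf11b, named after its value was seen. The count fell to 1 when chow replicate 9 was left out, to 2 when chow replicate 11 or HFD replicate 3 was, and to 0 in the Ward clusters. In those clusters 6 of all 4984 genes were called. In Ly6c2-low MHC II+ cells 2 of 19 and in C1q-intermediate macrophages 3 of 16 rose, beside the same 0.632% and 3.0%. Of the difference between the end stages, 0 of 28 were called (9 at an unadjusted p under 0.05, 0 by DESeq2), beside 0.0912% positive and 0.365% negative over all genes. Only 17 of these 28 had enough UMIs to be tested in C1q-high macrophages, and the others passed the filter through the monocytes, so no median of the difference is given. Under the alternatives that kept all mice the count of the difference was 0 to 3, beside 21 to 65 of all genes. It also rose without chow replicate 11 or without HFD replicate 1, where more of all genes were called too.

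**Figure D5:**
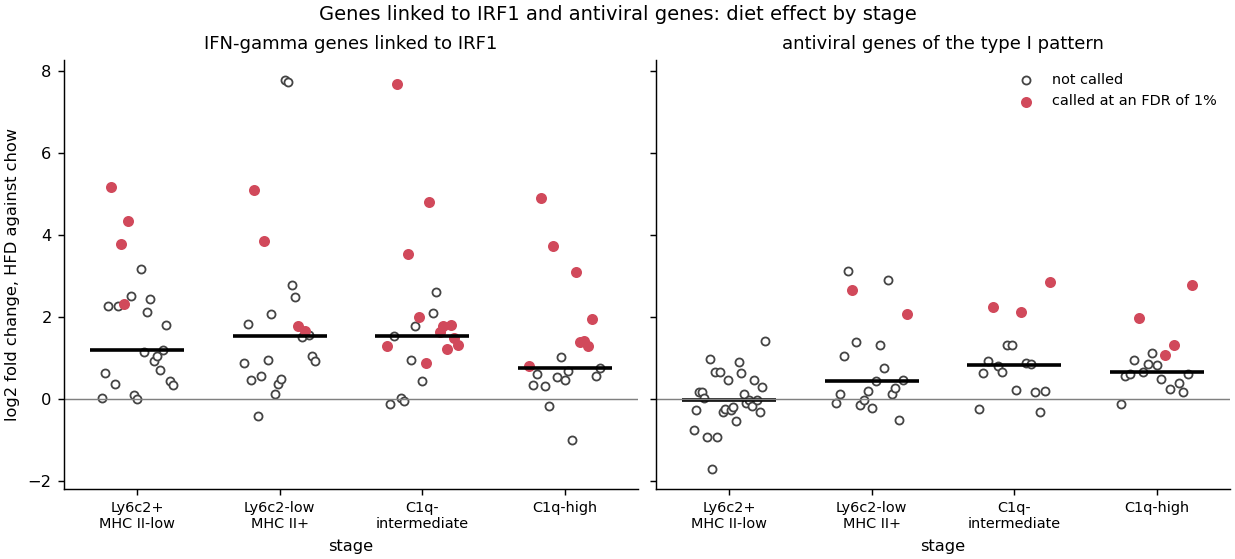
Log2 fold change of HFD against chow for each tested gene linked to IRF1 (left) and each antiviral gene of the type I pattern (right), without Irf1 and Irf7, in 4 stages. Filled points passed an FDR of 1% and black lines are medians of the genes tested in that stage, which are not the same genes in each. In the first and the last stage the medians are 1.20 (23 genes) and 0.75 (19 genes) on the left. On the right they are -0.025 (28 genes) and 0.66 (17 genes).

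Over the 16 sums of mouse and tested stage, the genes whose log2 CPM followed Irf1 most closely were Gm12250 (Pearson's r = 0.891), Gm12216 (0.883), Tor1aip1 (0.876), Calhm6 (0.843) and Gbp5 (0.836), among 5484 genes. Calhm6, which encodes a channel protein of the plasma membrane, was 60.8 ± 24.5 CPM on chow against 644 ± 7.37 CPM on HFD in Ly6c2+ MHC II-low monocytes and 66.2 ± 7.04 and 218 ± 10.3 CPM in C1q-high macrophages. For Irf7 the closest included Ly6e (0.945), Rtp4 (0.942), H2-D1 (0.939) and Plac8 (0.939). Ly6e, a membrane protein induced by interferon, was 1420 ± 83.2 and 1249 ± 37.8 CPM on chow and HFD in Ly6c2+ MHC II-low monocytes and 281 ± 89.6 and 551 ± 57.9 CPM in C1q-high macrophages. The sums share mice and depth between stages, so these are descriptions of likeness. The correlation between Irf1 and Irf7 themselves was 0.521.

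Markers of other cell types were set beside these results, and their part in them was not tested beyond the values given. Of 7 markers of T and NK cells, summed levels in Ly6c2+ MHC II-low monocytes were 0 on chow (3 counts over both mice would be 9.17 CPM) and 5.53 to 38.2 CPM on HFD, with Cd3e and Klrb1c at 0, and in C1q-high macrophages 2.82 to 4.51 CPM on chow and 3.62 to 23.1 CPM on HFD. For plasmacytoid dendritic cells, which are known for constant Irf7, 5 of 7 markers were in the matrix. Siglech was at 0 in Ly6c2+ MHC II-low monocytes. In C1q-high macrophages it was 29.9 ± 4.59 CPM on chow and 8.36 ± 9.96 CPM on HFD and was not called (log2 fold change -2.09 ± 0.60, SE, adjusted p = 0.048, edgeR). The summed level of the list was 565 to 914 CPM on chow and 334 to 428 CPM on HFD in Ly6c2+ MHC II-low monocytes and 371 to 488 and 335 to 362 CPM in C1q-high macrophages. Of this, Bst2, which macrophages also express, made up 468 ± 41.3 and 306 ± 43.2 CPM in the former and 275 ± 59.9 and 270 ± 18.5 CPM in the latter. Markers of conventional dendritic cells summed to 137 to 144 CPM on chow and 65.3 to 67.6 CPM on HFD in the former and to 29.5 to 34.0 and 38.2 to 39.0 CPM in the latter. Epithelial markers (4 of 5 in the matrix) summed to 6.01 to 6.22 CPM on chow and 2.21 to 435 CPM on HFD in the former, and to 2.82 to 11.1 and 9.89 to 10.9 CPM in the latter, where Epcam was at 0. Neutrophil markers (2 of 5 in the matrix) summed to 60.1 to 62.2 CPM on chow and 68.8 to 159 CPM on HFD in the former, and to 12.2 to 20.3 and 23.1 to 29.9 CPM in the latter. The B and plasma cell markers summed in C1q-high macrophages to 244 to 461 CPM on chow and between 98.9 and 140 CPM on HFD, where Jchain was called (log2 fold change -1.83 ± 0.29, SE, adjusted p = 0.0042, edgeR). The eosinophil marker Siglecf was at 0 in Ly6c2+ MHC II-low monocytes and at most 2.72 CPM in C1q-high macrophages.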

How the data were processed

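Sorted colonic cells from 4 mice gave droplet libraries (10x 3′ v2) that were sequenced together on 1 lane. The values are UMI counts per gene and cell as the authors deposited them, not normalized. Per the paper's methods they came from kallisto 0.46.0 followed by bustools 0.39.2, with Ensembl release 97 as the reference, after which cells and genes of low quality were dropped, together with cells whose reference-based label was neither monocyte nor macrophage. The mouse was read from each cell's name. Gene IDs were paired with symbols by a supplied table (11817 genes with a symbol of their own), and positions come from the GENCODE annotation of GRCm38.

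Irf1, Irf7, the gene lists and the rule for named genes were chosen with earlier results of these data known. The genes named were Irf1 and Irf7, other Irf genes, the 5 genes most like each, up to 3 called genes of largest change per list in the end stages and their difference, Plac8, Chil3 and markers, of which some are not reported here, nor are the lists of interferon receptor and signalling genes. UMIs were summed per mouse and stage. Stages in which every mouse had 20 or more cells were fitted with edgeR (version 4.0.16; TMM, quasi-likelihood test, FDR 1%) over genes above 1 CPM in 2 or more sums and found in 5% or more of the cells, with Benjamini-Hochberg adjustment over all of these, by a script tested on simulated data. The difference between stages had a term for each mouse. The SE beside an edgeR log2 fold change is its absolute value divided by the square root of the quasi-likelihood F statistic. Sums held 93155 to 7089627 UMIs in fitted stages. Doublets were not removed beyond cells positive for both Ly6c2 and C1q. Alternatives were DESeq2 (version 1.42.0), the likelihood-ratio test, other gates and filters, Ward clusters on 8 components after scran (version 1.30.0), thinning and leaving out each mouse.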

Additional observations from a re-analysis of the deposited data

Results flagged for a closer look

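Between Ly6c2+ MHC II-low monocytes and C1q-high macrophages, 3 genes of the lists had diet effects that differed past the threshold in edgeR's test of the difference (n = 2 mice per diet), 1 of 5 tested inhibitors and 2 of 23 genes linked to IRF1, beside 0.0912% positive and 0.365% negative of 5485 genes. The difference on the log2 scale was 1.72 ± 0.22 (SE, adjusted p = 0.000336) for Socs3, 1.91 ± 0.31 (adjusted p = 0.00347) for Gbp3 and 2.56 ± 0.35 (adjusted p = 0.000777) for Fcgr4, where a positive value means a higher log2 fold change in the monocytes. Socs3 was 464 ± 14.97 CPM on chow and 872 ± 96.3 on HFD in Ly6c2+ MHC II-low monocytes and 1053 ± 8.06 and 641 ± 90.0 CPM in C1q-high macrophages. Its own change was called in the macrophages (adjusted p = 0.00802) and not in the monocytes (log2 fold change 0.77, adjusted p = 0.114). Fcgr4 was 42.6 ± 16.3 and 227 ± 11.8 CPM in the former and 355 ± 77.7 and 341 ± 48.1 CPM in the latter. Socs3 and Fcgr4 were called under all 14 alternatives, and Gbp3 lost the call with DESeq2, with thinned cells and without chow replicate 11.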

How the results depend on the processing

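The Irf1 effect in Ly6c2+ MHC II-low monocytes and the Irf7 effect in C1q-high macrophages kept their direction under every alternative run. In the monocytes the log2 fold change of Irf1, 2.32, was 2.51 with no filter, 2.48 with 1 Ly6c2 UMI as the gate, 2.07 with MHC II+ cells added, 2.08 in Ward clusters without the listed genes and 2.13 with thinned cells. In Ward clusters, which hold fewer HFD cells of the C1q-high gate, macrophage Irf1 was 1.52 and Irf7 2.28 (2.17 without the listed genes), and the difference was 0.71 for Irf1 (1.38) and -1.98 for Irf7 (-1.70). Irf7 in monocytes ran from -0.40 to 0.34 over these settings, with no settled direction. Genes past the FDR in monocytes (12) numbered 22 with DESeq2, 77 with the likelihood-ratio test, 101 with no filter, 28 with 1 Ly6c2 UMI, 19 with MHC II+ cells added, 42 and 68 in the Ward clusters and 21 thinned. In macrophages (232) they numbered 484 with the likelihood-ratio test, 543 with no filter, 148 with no Ly6c2 UMI, 54 at a C1q of 150, 6 and 16 in the Ward clusters and 57 thinned. For the difference (25) they numbered 64, 65, 43 and 42 with the likelihood-ratio test, no filter, the Ly6c2 gate and MHC II+ cells added. Leaving out each mouse gave 0 to 7, 9 to 217 and 29 to 54 genes, with 0 in monocytes without HFD replicate 1 (165 at an unadjusted p under 0.05) or HFD replicate 3 (192). Irf1 then ran from 2.25 to 2.42, 0.26 to 0.87 and 1.64 to 2.12, and Irf7 from -0.72 to 0.27, 2.45 to 2.71 and -3.20 to -2.25. The lone mouse is assumed there to vary like the other group. The cause of these shifts was not tested. Leaving out cells rich in Igha and Jchain was chosen after seeing the data. No paired analysis was possible because the diets share no replicate number.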
